A study of Homo sapiens with 10 samples.

Results

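The genes described here are the effectors of the ATF4 and CHOP branch of the cellular stress response: ATF4, DDIT3 (which encodes CHOP), ATF3, TRIB3, CHAC1, ASNS, SESN2, DDIT4, PPP1R15A and CEBPB. They were chosen by name, as the 10 genes whose spots carry these symbols in the scanner files, out of 28090 named genes on the array. They were measured by 15 probes on 24 spots. The cells were PC-3, a human prostate cancer line that grows without androgen, and their mRNA was hybridized to 10 single-color Agilent oligonucleotide arrays. The 5 groups of 2 arrays each were cells before treatment (0 h) and cells kept for 24 h with DMSO, with 60 µM luteolin, with 60 µM gefitinib or with 60 µM of each drug together. DMSO was the solvent of both drugs, luteolin is a plant flavonoid, and gefitinib inhibits the kinase of the epidermal growth factor receptor. The labels call the replicates biological. They do not state whether these came from separate cultures or days, so the p-values below measure the spread between these arrays. The labels give 35°C as the culture temperature, whereas the methods text gives 37°C. All 10 arrays come from a single cell line without a genetic change.

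The treatment in the name of a scanner file disagreed with the sample label for all 6 drug-treated arrays. Files of arrays labelled luteolin were named for gefitinib, those labelled gefitinib for both drugs, and those labelled luteolin plus gefitinib for luteolin. Groups below follow the labels, and "labelled" is written throughout for that reason. Under the file names, the values given for the luteolin label would belong to gefitinib, those for the gefitinib label to both drugs, and those for the combined label to luteolin. The labels and scanner files alone do not settle which naming is right. For a single gene outside these 10, the study's text orders the array responses to the drugs as the file names do and not as the labels do. The labels thus differ from the study's own use of the drug names for that gene. For the genes below they may differ too, which a single gene cannot settle.

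ATF4 is a transcription factor whose mRNA is translated when kinases phosphorylate the initiation factor eIF2α, as in endoplasmic reticulum stress, amino acid shortage or lack of heme. ATF4 then drives genes of amino acid supply and, with C/EBP partners, further factors such as CHOP and ATF3, and CHOP is known for its part in apoptosis under prolonged stress. The pathway also holds its own brakes, among them a phosphatase subunit that reverses the phosphorylation of eIF2α and inhibitors of the growth kinase mTORC1.

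Levels are the log2 processed signal minus the log2 of the 75th percentile over non-control spots of that array, so that 0 is the 75th percentile and a difference of 1 is 2-fold. That percentile was 1177 to 1402 on the 0 h and DMSO arrays and 1041 to 1173 under the luteolin label, but 628 and 651 under the gefitinib label and 539.8 and 865 under the combined label. On each array between 64.2% and 71.1% of spots were well above background and 0 were saturated. The 10 genes, each represented by its brightest probe, were well above background on all 10 arrays. Groups were compared with limma over the 28776 probes kept, and a gene was called at a Benjamini-Hochberg adjusted p under 0.05 that came with at least a 2-fold change. Within groups, the median SD over genes ran from 0.0886 with DMSO to 0.258 with the combined label. The 5 keratin and adhesion markers of epithelial cells were well above background on all 10 arrays. PTPRC of leukocytes and DCN of fibroblasts were well above background on 0 of 10 arrays. Other markers moved against DMSO with the drug labels: CD3E (1.25) and CD14 (1.81) of leukocytes and LUM (1.03) of fibroblasts were raised under the gefitinib label, CD14 (1.64) and LUM (1.74) under the combined label, and COL1A1 of fibroblasts was lowered under both (−2.22 and −1.54). Their part in the results was not tested. A signal from bulk RNA cannot tell fewer expressing cells from less RNA per cell.

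The promoters of 4 of these genes are shown because their motifs belong to this pathway. Whether a motif goes with how a gene moved was not tested. Windows from 250 bases before to 50 bases after each RefSeq start (GRCh38.p14) were available for 10 of 10 genes and were searched on both strands. The C/EBP-ATF response element TGATGNAAN, the site where ATF4 pairs with a C/EBP protein, was found in 3 of the 10 genes, with its first base 68 bases before the start of ASNS, 210 before CHAC1 and 191 before ATF3. The cyclic AMP response element TGACGTCA was found in PPP1R15A, 58 bases before the start. The AP-1 site TGACTCA was found in DDIT3, as a single site in its 2 overlapping windows, and none of the 3 motifs was found in the windows of ATF4, TRIB3, SESN2, DDIT4 or CEBPB. Capitals mark the motif in each sequence, read 5′ to 3′ on the strand of the gene. In CHAC1 the motif lies on the opposite strand, so its reverse complement appears. The sequences span chr7:97872418-97872526 (minus strand) for ASNS, chr15:40953221-40953319 (plus) for CHAC1, chr1:212565166-212565274 (plus) for ATF3 and chr19:48872313-48872420 (plus) for PPP1R15A.
ASNS: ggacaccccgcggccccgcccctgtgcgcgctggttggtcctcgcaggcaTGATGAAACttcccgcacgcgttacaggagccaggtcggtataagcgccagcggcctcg
CHAC1: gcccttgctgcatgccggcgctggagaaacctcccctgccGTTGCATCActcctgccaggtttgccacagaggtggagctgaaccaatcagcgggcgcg
ATF3: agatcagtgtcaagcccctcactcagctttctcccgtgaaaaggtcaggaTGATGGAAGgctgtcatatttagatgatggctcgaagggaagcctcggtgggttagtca
PPP1R15A: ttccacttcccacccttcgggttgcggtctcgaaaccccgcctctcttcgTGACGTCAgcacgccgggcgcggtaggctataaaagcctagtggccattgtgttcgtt

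Of all 35116 windows of this length, 3.61% held the C/EBP-ATF response element, 1.85% the cyclic AMP response element and 4.95% the AP-1 site. By gene, the C/EBP-ATF response element was in 2.72% of the 10784 tested genes with a window and in 5.45% of the 771 of them raised under the luteolin label. The same shares were 3.64% and 2.85% for the cyclic AMP response element and 4.92% and 6.23% for the AP-1 site. These shares are descriptions, and a matching string is not a measured binding site.

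The first question was whether the solvent alone moved these genes. With DMSO for 24 h, 0 of the 10 genes were called against 0 h, where 0.0355% of all genes were called in either direction, and 0 of the 10 had an unadjusted limma p under 0.05. Their changes ran from −0.29 for ASNS to 0.47 for DDIT4.

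The transcription factors split into those raised under the luteolin and combined labels, 1 raised under the luteolin label alone, and 1 raised under every drug label, with its highest mean under the gefitinib label. ATF4, the central factor, stood at 4.67 and 4.87 at 0 h, 4.79 and 4.72 with DMSO, 6.51 and 6.84 labelled luteolin, 5.71 and 5.02 labelled gefitinib, and 5.83 and 6.63 labelled luteolin plus gefitinib. On this scale the luteolin-labelled and combined arrays overlapped each other and lay above all other arrays, with the gefitinib-labelled arrays between them and the controls. The place of the gefitinib-labelled arrays depends on the scaling. In unscaled signal they stood at 33996 and 20343, against 37357 and 33773 with DMSO. With quantile normalization their change against DMSO was −0.13. Unscaled, the combined arrays (49220 and 53575) lay below the luteolin-labelled arrays (106891 and 119397). Against DMSO, ATF4 rose by 1.92 ± 0.31 (SE; 3.79-fold, limma adjusted p = 0.00365) under the luteolin label and by 1.48 ± 0.31 (adjusted p = 0.00812) under the combined label, and its value under the gefitinib label was 0.61 ± 0.31 (adjusted p = 0.126). CEBPB, a C/EBP factor of stress and inflammation, stood at 1.14 and 1.46 at 0 h, 1.16 and 1.41 with DMSO, 2.87 and 3.67 labelled luteolin, 2.56 and 1.82 labelled gefitinib, and 2.43 and 2.80 labelled luteolin plus gefitinib. On this scale its drug-treated arrays all lay above the 4 control arrays, with the luteolin-labelled pair on top. In unscaled signal its gefitinib-labelled arrays, at 3842 and 2214, fell on either side of the 3016 and 3409 with DMSO. CEBPB rose by 1.99 ± 0.33 (adjusted p = 0.0042) and by 1.33 ± 0.33 (adjusted p = 0.015) under the luteolin and combined labels. Under the gefitinib label the value of 0.90 ± 0.33 (adjusted p = 0.0456) stayed under the 2-fold minimum.

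DDIT3, the gene of CHOP, stood at −0.81 and −0.32 at 0 h, −0.68 and −0.32 with DMSO, 1.67 and 3.05 labelled luteolin, −0.34 and −1.54 labelled gefitinib, and −0.77 and −0.69 labelled luteolin plus gefitinib. The luteolin-labelled arrays stood apart from all 8 others, although they also differed from each other by more than any control pair did. In unscaled signal this was 3725 and 8627 on the luteolin-labelled arrays against 842 and 1025 with DMSO. DDIT3 rose 7.27-fold under that label (2.86 ± 0.49 on the log2 scale, adjusted p = 0.00485). The values under the gefitinib and combined labels, −0.44 ± 0.49 (adjusted p = 0.475) and −0.23 ± 0.49 (adjusted p = 0.73), were within 1 SE of 0. ATF3, an early-response factor of the same bZIP family, stood at −0.90 and −0.57 at 0 h, −0.39 and −0.29 with DMSO, 0.95 and 2.14 labelled luteolin, 3.34 and 2.28 labelled gefitinib, and 2.39 and 2.14 labelled luteolin plus gefitinib. All 6 drug-treated arrays lay above the 4 controls, and the gefitinib-labelled mean was the highest. The gefitinib-labelled and combined arrays overlapped, and the combined label differed from the gefitinib label by −0.54 ± 0.43 (limma adjusted p = 0.322). In unscaled signal the gefitinib-labelled arrays, at 6569 and 3050, overlapped the luteolin-labelled (2270 and 4602) and combined arrays (4544 and 2384). ATF3 rose by 3.14 ± 0.43 (8.84-fold, adjusted p = 0.00099) under the gefitinib label, by 2.60 ± 0.43 (adjusted p = 0.00344) under the combined label and by 1.88 ± 0.43 (adjusted p = 0.0145) under the luteolin label.

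**Figure D1:**
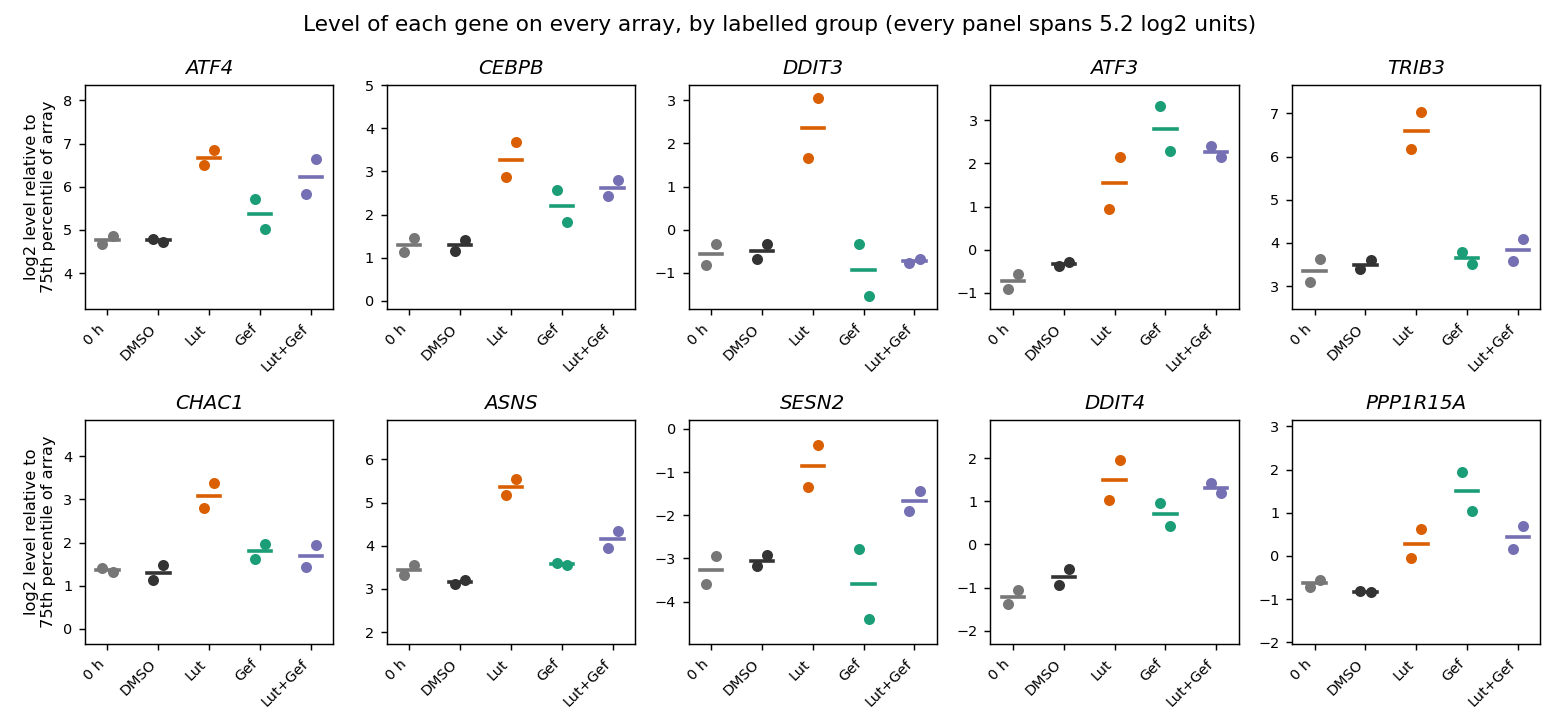
Log2 level of each of the 10 genes, relative to each array's 75th percentile, in the 5 labelled groups (Lut, luteolin; Gef, gefitinib). Points are single arrays, lines are the means of 2 arrays, and every panel covers the same span. DDIT3, TRIB3 and CHAC1 stand out on the luteolin-labelled arrays, where DDIT3 reached 1.67 and 3.05, whereas ATF3 and PPP1R15A have their highest means under the gefitinib label.

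The pseudokinase TRIB3 and the enzymes CHAC1 and ASNS were raised against DMSO under the luteolin label and were not called under the other labels. TRIB3, a pseudokinase induced by CHOP and ATF4 that restrains AKT and ATF4 itself, stood at 3.09 and 3.63 at 0 h, 3.39 and 3.60 with DMSO, 6.17 and 7.04 labelled luteolin, 3.80 and 3.51 labelled gefitinib, and 3.57 and 4.10 labelled luteolin plus gefitinib. The luteolin-labelled arrays were far above the rest, which overlapped. In unscaled signal this was 84436 and 136647 against 14192 and 15517 with DMSO. TRIB3 rose 8.62-fold (3.11 ± 0.32, adjusted p = 0.000845), the largest change of the 10 genes under that label, against 0.16 ± 0.32 (adjusted p = 0.702) under the gefitinib label and 0.34 ± 0.32 (adjusted p = 0.419) under the combined label. CHAC1, which degrades glutathione, stood at 1.41 and 1.31 at 0 h, 1.12 and 1.47 with DMSO, 2.81 and 3.37 labelled luteolin, 1.63 and 1.96 labelled gefitinib, and 1.44 and 1.94 labelled luteolin plus gefitinib. Only its luteolin-labelled arrays lay clear of the others, and it rose there by 1.79 ± 0.26 (3.46-fold, adjusted p = 0.00238). ASNS, asparagine synthetase, stood at 3.33 and 3.57 at 0 h, 3.11 and 3.21 with DMSO, 5.18 and 5.54 labelled luteolin, 3.61 and 3.56 labelled gefitinib, and 3.96 and 4.34 labelled luteolin plus gefitinib. On this scale the combined arrays lay between the luteolin-labelled arrays and the rest without touching either. In unscaled signal the combined arrays, at 13446 and 10929, overlapped the 11634 and 11912 with DMSO. ASNS rose by 2.20 ± 0.20 (4.59-fold, adjusted p = 0.000537) under the luteolin label, and the combined label gave 0.99 ± 0.20 (1.98-fold, adjusted p = 0.00702), just under the 2-fold minimum.

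Among the brakes, PPP1R15A, DDIT4 and SESN2 did not share a single pattern. PPP1R15A (GADD34), the phosphatase subunit that reverses eIF2α phosphorylation, stood at −0.71 and −0.56 at 0 h, −0.82 and −0.84 with DMSO, −0.05 and 0.61 labelled luteolin, 1.96 and 1.05 labelled gefitinib, and 0.16 and 0.70 labelled luteolin plus gefitinib. On this scale the gefitinib-labelled arrays were highest and the other drug-treated arrays overlapped each other above the controls. PPP1R15A rose by 2.33 ± 0.34 (5.03-fold, adjusted p = 0.00129) under the gefitinib label, by 1.26 ± 0.34 (adjusted p = 0.0197) under the combined label and by 1.11 ± 0.34 (adjusted p = 0.0431) under the luteolin label. Its unscaled signal on the gefitinib-labelled arrays, 2525 and 1299, was also above the 766 and 716 with DMSO. The lower of these lay below the 1595 of luteolin-labelled array 2. DDIT4 (REDD1), an inhibitor of mTORC1, stood at −1.37 and −1.05 at 0 h, −0.93 and −0.56 with DMSO, 1.02 and 1.95 labelled luteolin, 0.96 and 0.44 labelled gefitinib, and 1.42 and 1.20 labelled luteolin plus gefitinib. It was above the controls on all 6 drug-treated arrays and rose by 2.23 ± 0.32 (adjusted p = 0.00242), 1.44 ± 0.32 (adjusted p = 0.00693) and 2.06 ± 0.32 (adjusted p = 0.00302) under the luteolin, gefitinib and combined labels. In unscaled signal its gefitinib-labelled arrays, at 1268 and 849.8, overlapped the 709 and 870.4 with DMSO. SESN2 (sestrin 2), which restrains mTORC1 by way of amino acid sensing, stood at −3.60 and −2.93 at 0 h, −3.19 and −2.93 with DMSO, −1.35 and −0.37 labelled luteolin, −2.79 and −4.40 labelled gefitinib, and −1.91 and −1.44 labelled luteolin plus gefitinib. The gefitinib-labelled arrays fell on either side of the controls. SESN2 rose by 2.20 ± 0.52 (4.59-fold, adjusted p = 0.0176) under the luteolin label, and its value under the combined label, 1.39 ± 0.52 (adjusted p = 0.0631), did not pass although both arrays lay above all 4 controls.

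In counts against DMSO, 10 of the 10 genes were raised under the luteolin label, where 7.22% of all genes were raised and 6.17% lowered. The gefitinib label raised 3 of 10 (ATF3, DDIT4 and PPP1R15A), where 15.6% of all genes were raised and 14.3% lowered, and the combined label raised 5 of 10 (ATF4, CEBPB, ATF3, DDIT4 and PPP1R15A), where 12.1% were raised and 7.69% lowered. None of the 10 was lowered in these 3 comparisons. The median change of the 10 genes was 2.09 under the luteolin label, 0.55 under the gefitinib label and 1.30 under the combined label, against 0.084, 0.22 and 0.16 over all genes tested. The 3 comparisons share the DMSO arrays. With quantile normalization, which brought the median over all genes to 0.047 under the gefitinib label and 0.014 under the combined label, the same counts were 10, 3 and 4, with ATF4 at 0.91 under the combined label. With the slide as a block the counts were 10, 4 and 6, with CEBPB (1.26) added under the gefitinib label and SESN2 (1.39) under the combined label. Within the 2 slides that held DMSO arrays, the luteolin-labelled array was above the DMSO array for all 10 genes, by 0.76 to 2.78 on slide 1 and by 1.46 to 3.44 on slide 2. The gefitinib label shared only slide 1 with DMSO, where ATF3, DDIT4 and PPP1R15A differed by 3.72, 1.89 and 2.77. For the 5 genes called under the combined label the differences ran from 0.98 to 2.78 on slide 1 and from 1.39 to 2.43 on slide 2. By file name, luteolin would raise 5, gefitinib 10 and both drugs 3 of the 10 genes.

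**Figure D2:**
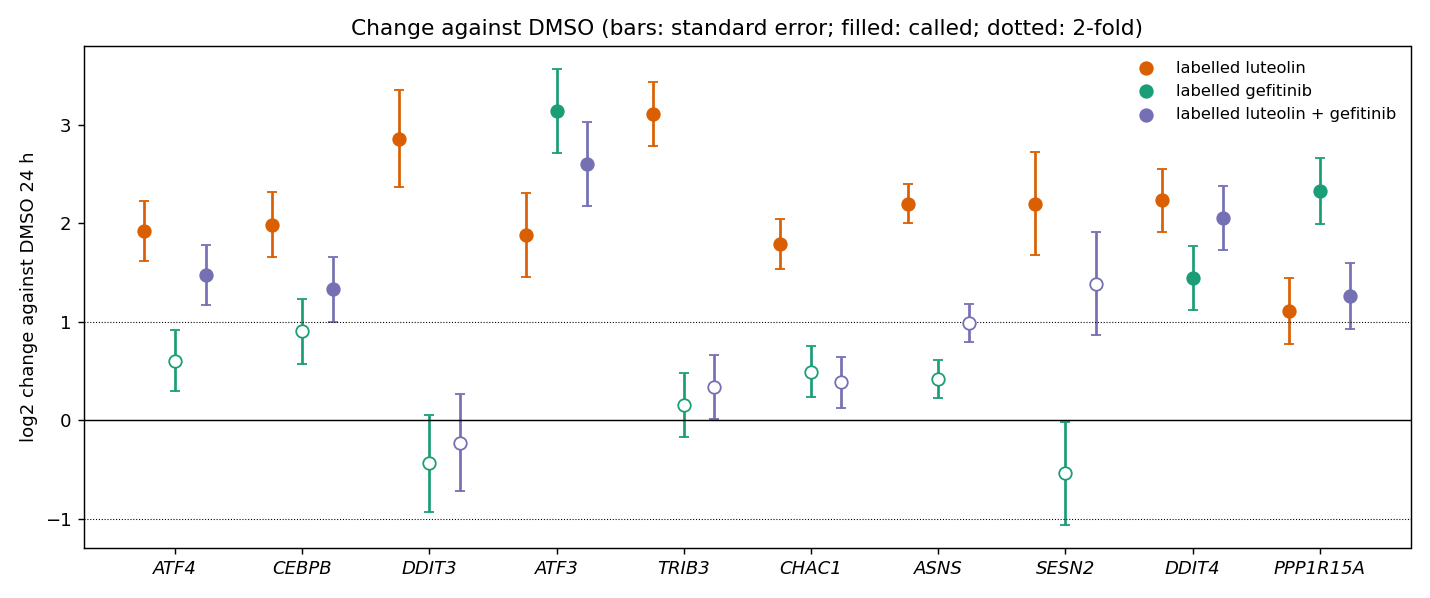
Log2 change of the 10 genes against DMSO for the 3 labelled drug groups, with bars of 1 standard error from the limma fit over 10 arrays, filled points for called genes and dotted lines at 2-fold. The luteolin-labelled points all lie above 1 and are all filled. Under the gefitinib label only ATF3, DDIT4 and PPP1R15A are filled.

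Single arrays decided some of these calls. Under the luteolin label ATF3, SESN2 and PPP1R15A lost theirs without DMSO array 1 (adjusted p = 0.0794, 0.0958 and 0.151), without DMSO array 2 (adjusted p = 0.068, 0.0694 and 0.161) and without luteolin-labelled array 2 (adjusted p = 0.0956, 0.127 and 0.254), and PPP1R15A also without either 0 h array (adjusted p = 0.0649 in both fits). Under the combined label CEBPB and PPP1R15A lost theirs without DMSO array 1 (adjusted p = 0.0847 and 0.0815), DMSO array 2 (adjusted p = 0.0558 and 0.0877) or combined array 2 (adjusted p = 0.0833 and 0.112), ATF4 without DMSO array 2 (adjusted p = 0.0517), and ASNS gained a call without DMSO array 2 (1.04) or combined array 1 (1.18). SESN2 was called under the combined label without either gefitinib-labelled array (adjusted p = 0.0214 in both fits), where its change stays 1.39. Under the gefitinib label CEBPB was called without gefitinib-labelled array 2 (1.28) and SESN2 was lowered without gefitinib-labelled array 1 (−1.34). That SESN2 value rests on gefitinib-labelled array 2 alone, where its signal was near the floor. Over both arrays the SESN2 change was 0.16 with normexp background correction and 0.12 with the slide as a block.

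The drug groups were next compared with each other. The luteolin label was above the gefitinib label for 7 genes, where 18.1% of all genes were higher, and below it for 2, where 18.5% of all genes were lower. DDIT3 differed most, by 3.30 ± 0.49 (9.83-fold, adjusted p = 0.000845), followed by TRIB3 at 2.95 ± 0.32 (adjusted p = 0.000225) and SESN2 at 2.74 ± 0.52 (adjusted p = 0.00263). ASNS (1.78), ATF4 (1.31), CHAC1 (1.29) and CEBPB (1.08) were the other genes that were higher. The 2 that were lower were ATF3, at −1.26 ± 0.43 (adjusted p = 0.0319), and PPP1R15A, at −1.22 ± 0.34 (adjusted p = 0.0138). DDIT4 differed by 0.79 ± 0.32 (adjusted p = 0.0628). Both lower calls were lost without luteolin-labelled array 1 (ATF3 −0.66, PPP1R15A −0.89) or gefitinib-labelled array 1 (ATF3 −0.73, PPP1R15A −0.77), that of ATF3 also with quantile normalization (−0.94), and the calls of CEBPB and ATF4 without gefitinib-labelled array 2 (0.71 and 0.97), CEBPB's also without luteolin-labelled array 2 (0.68) and with the slide as a block (0.73, adjusted p = 0.0671), which left 6 genes higher. DDIT4 was called without luteolin-labelled array 1 (1.26). On the slide that held both labels the differences were 2.01 for DDIT3, 2.37 for TRIB3, 1.58 for ASNS, −2.38 for ATF3 and −2.01 for PPP1R15A.

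The combined label was then set against each single-drug label. By file name, its comparison with the luteolin label would be luteolin against gefitinib, with no drug added. That with the gefitinib label would be luteolin against both drugs. Against the luteolin label, the combined label had 4 genes lower and 0 higher, where 9.75% of all genes were lower and 11.3% higher. They were DDIT3 (−3.09 ± 0.49, adjusted p = 0.00249), TRIB3 (−2.77 ± 0.32, adjusted p = 0.000796), CHAC1 (−1.40 ± 0.26, adjusted p = 0.00437) and ASNS (−1.21 ± 0.20, adjusted p = 0.00273). The same 4 were called without any single array. On the 2 slides that held both labels the difference was −2.44 and −3.74 for DDIT3, −2.60 and −2.94 for TRIB3, −1.37 and −1.43 for CHAC1, and −1.22 and −1.20 for ASNS. Of the factors that act upstream, DDIT3 is thus among the 4, whereas ATF4 (−0.44 ± 0.31, adjusted p = 0.269) and CEBPB (−0.65 ± 0.33, adjusted p = 0.14) were not called. The second ATF4 probe gave −0.82 (adjusted p = 0.0919). With quantile normalization ATF4 was also lower (−1.01, adjusted p = 0.0064).

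Against the gefitinib label, the combined label had SESN2 higher (1.92 ± 0.52, adjusted p = 0.0168), where 17.2% of all genes were higher, and PPP1R15A lower (−1.07 ± 0.34, adjusted p = 0.0303), where 9.76% were lower. The call of SESN2 was lost without gefitinib-labelled array 2 (1.12) or combined array 2 (1.69), and that of PPP1R15A without gefitinib-labelled array 1 (−0.61) or combined array 1 (−0.80). DDIT3, TRIB3 and CHAC1 differed by 0.21 ± 0.49, 0.18 ± 0.32 and −0.11 ± 0.26, each within 1 SE of 0. ATF4 had a value of 0.87 ± 0.31 (adjusted p = 0.0465), under the 2-fold minimum, and was called without gefitinib-labelled array 1 (1.22) or combined array 1 (1.27).

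The interaction asked whether the change with both drugs equals the single-drug changes added together, with DMSO as the base and on the log2 scale. It was below 0 for 8 of the 10 genes at an adjusted p under 0.05, where 16.3% of all genes had a call below 0 and 17.9% above. For DDIT3 the single-drug changes add to 2.43 and the combined label gave −0.23, for an interaction of −2.65 ± 0.69 (adjusted p = 0.0201). For TRIB3 they add to 3.26 against 0.34, an interaction of −2.92 ± 0.46 (adjusted p = 0.00236), and for ATF3 to 5.03 against 2.60, an interaction of −2.42 ± 0.60 (adjusted p = 0.0163). The other calls were PPP1R15A (−2.18, adjusted p = 0.00955), CHAC1 (−1.90, adjusted p = 0.00562), ASNS (−1.63, adjusted p = 0.00339), DDIT4 (−1.62, adjusted p = 0.0267) and CEBPB (−1.56, adjusted p = 0.033). ATF4 (−1.05, adjusted p = 0.0956) and SESN2 (−0.28, adjusted p = 0.791) did not pass. With quantile normalization ATF4 passed (−0.87, adjusted p = 0.0452), which made 9 genes. Without the filter on dim probes DDIT4 (adjusted p = 0.0554) and CEBPB (adjusted p = 0.0661) did not, which left 6. The median over the 10 genes was −1.76, against −0.16 over all genes.

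The interaction calls of TRIB3, CHAC1, ASNS and PPP1R15A held without any single array. Without DMSO array 1, DDIT3, ATF3, DDIT4 and CEBPB lost theirs (adjusted p = 0.0653, 0.051, 0.091 and 0.1), which left 4. Without gefitinib-labelled array 1 (adjusted p = 0.0518, 0.0758 and 0.0879) or luteolin-labelled array 2 (adjusted p = 0.0532, 0.0694 and 0.1), DDIT3, DDIT4 and CEBPB did, which left 5. DDIT3 and CEBPB lost theirs without combined array 1 (adjusted p = 0.0555 and 0.0914), CEBPB without DMSO array 2 (adjusted p = 0.0664) and DDIT4 without combined array 2 (adjusted p = 0.064). ATF4 was called without gefitinib-labelled array 2 (−1.40, adjusted p = 0.0456) or combined array 2 (−1.45, adjusted p = 0.0251). By file name 8 genes would also be below 0, but not the same 8: ATF3 (−1.35, adjusted p = 0.104) and PPP1R15A (−0.04, adjusted p = 0.954) would not be called, and ATF4 and SESN2 would.

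**Figure D3:**
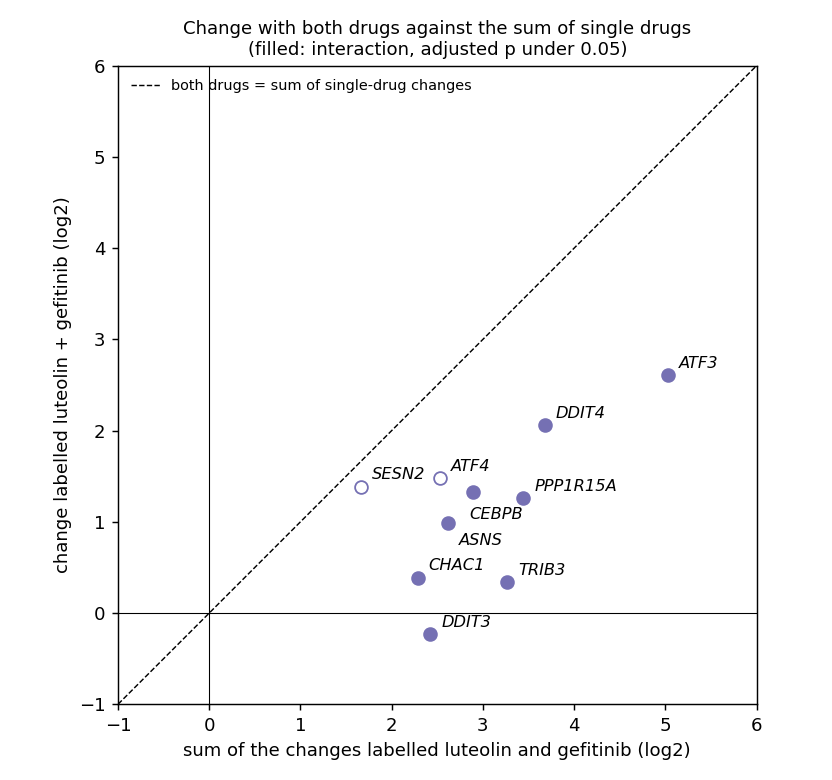
Log2 change under the combined label (vertical axis) against the sum of the changes under the luteolin and gefitinib labels (horizontal axis), all against DMSO. Each point is 1 gene, filled where the interaction had an adjusted p under 0.05, and the dashed line marks equality. All 10 points lie below the line, DDIT3 at 2.43 and −0.23, and SESN2 is the closest to it.

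Against the 0 h arrays, which the study used as the reference for its fold changes, the luteolin label raised 9 of the 10 genes, where 8.26% of all genes were raised. PPP1R15A, at 0.92 (adjusted p = 0.0725), was the exception. TRIB3 (3.25), DDIT3 (2.92) and DDIT4 (2.70) changed most. The gefitinib label raised 3 (ATF3 3.54, PPP1R15A 2.14 and DDIT4 1.91), where 14.5% of all genes were raised. The combined label raised 6 (ATF3 3.00, DDIT4 2.53, SESN2 1.59, ATF4 1.46, CEBPB 1.32 and PPP1R15A 1.07), where 11.5% were raised. With the slide as a block, SESN2 (1.11, adjusted p = 0.0714) and PPP1R15A (0.86, adjusted p = 0.0916) lost their calls under the combined label, which left 4, and CEBPB (1.06, adjusted p = 0.0171) was added under the gefitinib label. SESN2 lost its call under the luteolin label without 0 h array 1 (adjusted p = 0.075) or luteolin-labelled array 2 (adjusted p = 0.0826). Under the combined label SESN2 and PPP1R15A lost theirs without 0 h array 1 (adjusted p = 0.181 and 0.132), 0 h array 2 (adjusted p = 0.0717 and 0.0989), either DMSO array (adjusted p = 0.058 and 0.0548) or combined array 2 (adjusted p = 0.181 for both), SESN2 also without combined array 1 (adjusted p = 0.0681), and CEBPB without 0 h array 1 (adjusted p = 0.0827) or combined array 2 (adjusted p = 0.0853).

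The genes lie on 8 chromosomes of hg18, the build of the scanner files. The representing probes span chr22:38248523-38248582 for ATF4, chr12:56197467-56197793 for DDIT3, chr1:210860479-210860538 for ATF3, chr20:326107-326166 for TRIB3, chr15:39035814-39035873 for CHAC1, chr7:97319397-97319456 for ASNS, chr1:28480781-28480840 for SESN2, chr10:73705369-73705428 for DDIT4, chr19:54069939-54070713 for PPP1R15A and chr20:48242396-48242455 for CEBPB. The DDIT3 and PPP1R15A probes cover 327 and 775 bases of genome, where each of the others covers 60. A second probe was kept for ATF4, TRIB3, ATF3 and CEBPB. That of ATF4 gave 2.25, 0.46 and 1.43 under the luteolin, gefitinib and combined labels, that of TRIB3 3.33, −0.21 and 0.16, and that of ATF3 1.52, 2.91 and 2.21. These had the calls of the brighter probes. The dimmer CEBPB probe gave 1.11, 1.24 and 1.11, so it was called under the gefitinib label (adjusted p = 0.00423), where the brighter probe was under 2-fold, and it did not place the luteolin label above the gefitinib label. The second ASNS probe, from a clone sequence, was well above background on 2 of 10 arrays and was not kept.

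Other genes of the pathway came from 4 lists, whose counts against DMSO stand beside the shares of all genes raised and lowered there: 7.22% and 6.17% under the luteolin label, 15.6% and 14.3% under the gefitinib label, and 12.1% and 7.69% under the combined label. The eIF2α kinases and translation factors act upstream of ATF4. Of these 15 genes, 1 was raised and 2 lowered under the luteolin label, 0 and 0 under the gefitinib label, and 1 and 1 under the combined label. EIF2AK3 (PERK), the eIF2α kinase of the endoplasmic reticulum, rose by 1.51 ± 0.18 (adjusted p = 0.0012) under the luteolin label, against −0.18 ± 0.18 and 0.38 ± 0.18 under the others. EIF2AK4 (GCN2), the kinase that senses uncharged tRNA, fell by 1.44 on the log2 scale (adjusted p = 0.0013) under the combined label. PPP1R15B, the constitutive counterpart of PPP1R15A, rose by 1.25 ± 0.23 (adjusted p = 0.0052) there.

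The second list held known targets of ATF4 or CHOP other than the 10 genes. Of 33 tested, 20 were raised and 0 lowered under the luteolin label, 6 and 3 under the gefitinib label, and 11 and 1 under the combined label, with medians of 1.13, 0.33 and 0.50. The gefitinib-label counts are 18.2% and 9.09% of the list, near the shares over all genes. With quantile normalization the counts were 21 and 0, 0 and 4, and 8 and 2, so the rises under the gefitinib label depend on the scaling. NUPR1, a stress-induced chromatin protein, rose by 3.37 ± 0.29 (adjusted p = 0.000532) under the luteolin label and by 1.33 ± 0.29 (adjusted p = 0.00649) under the gefitinib label, and had a value of 0.98 ± 0.29 under the combined label. SLC7A11, the cystine transporter, rose by 2.92 ± 0.23 (adjusted p = 0.000398) under the luteolin label, with −0.90 ± 0.23 and 0.36 ± 0.23 under the others. GDF15, a secreted stress cytokine, rose by 2.69 ± 0.34 (adjusted p = 0.00147) and 2.50 ± 0.34 (adjusted p = 0.0019) under the luteolin and combined labels, with −0.05 ± 0.34 under the gefitinib label.

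In the other arms of the unfolded protein response, 6 of 13 genes were raised under the luteolin label, 3 under the gefitinib label and 5 under the combined label, and 0 were lowered (7, 1 and 3 raised with quantile normalization). The 3 raised under the gefitinib label are 23.1% of the list, against the 15.6% of all genes. DNAJB9, a chaperone cofactor under XBP1, rose by 2.68 ± 0.43 (adjusted p = 0.00358) and 1.78 ± 0.43 (adjusted p = 0.0134) under the luteolin and combined labels, with −0.26 ± 0.43 under the gefitinib label. HSPA5 (BiP), the main chaperone of the endoplasmic reticulum, rose by 1.63 ± 0.33 (adjusted p = 0.00915) and 1.40 ± 0.33 (adjusted p = 0.0124) under the same labels. ERN1 (IRE1α), the sensor that splices XBP1 mRNA, rose under all 3 labels, by 1.85, 1.28 and 1.42.

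The last list held paralogs of the 10 genes and related bZIP factors. It held 12 genes. Of 10 tested, 4 were raised and 1 lowered under the luteolin label, 0 and 4 under the gefitinib label, and 2 and 1 under the combined label. The gefitinib-label counts were 1 and 2 with normexp background correction, 0 and 3 with the slide as a block, and 0 and 4 with quantile normalization. JDP2, a bZIP repressor close to ATF3, rose by 2.18 ± 0.31 (adjusted p = 0.00231) under the luteolin label. TRIB1, a paralog of TRIB3, fell by 1.99 on the log2 scale (adjusted p = 0.00408) under the gefitinib label. SESN1, a paralog of SESN2, was not well above background on the gefitinib-labelled arrays and was at least 3.44-fold lower there than with DMSO. For that limit each gefitinib-labelled array entered with its own signal or, if that was higher, its lowest signal well above background. The limma adjusted p of 0.00018 belongs to the measured levels (−5.83 against −3.27 with DMSO) and does not test that limit.

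**Figure D4:**
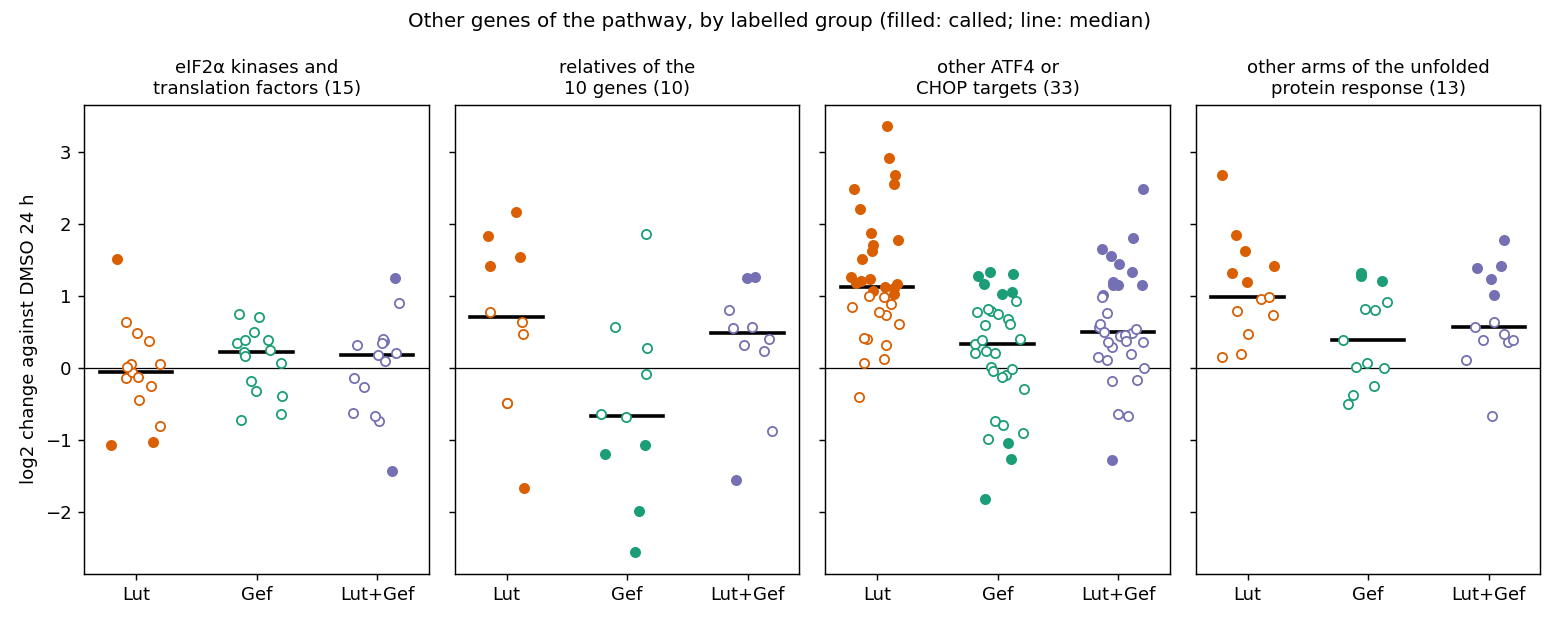
Log2 change against DMSO of the genes of 4 pathway lists in the 3 labelled drug groups (Lut, luteolin; Gef, gefitinib), with the number tested in each panel title. Points are genes, filled where called, and black lines are medians. The ATF4 or CHOP targets have a median of 1.13 under the luteolin label and 0.33 under the gefitinib label.

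The 10 genes also differed in how they followed each other over the 10 arrays. These correlations are descriptions, since the arrays share 5 treatments and each array's scaling. Pearson's r was highest for ATF4 with CEBPB (0.96), DDIT3 with TRIB3 (0.96), TRIB3 with CHAC1 (0.95) and TRIB3 with ASNS (0.95), and reached 0.93 for ATF3 with PPP1R15A. Spearman's rho for these pairs, in the same order, was 0.96, 0.76, 0.71, 0.84 and 0.81. Lowest in r were DDIT3 with PPP1R15A (0.05) and DDIT3 with ATF3 (0.12). Of 16273 genes well above background on all 10 arrays, the 3 outside the set most like ATF4 were LOC643894 (r = 0.99), SECISBP2 (0.98) and LOC643159 (0.98). Both LOC genes are annotated in the scanner files as similar to ATF4, and whether their probes measure the ATF4 transcript was not tested. The 3 most like DDIT3 were RNF19B, SIRT1 and SPIRE1 (0.97 each), and those most like SESN2 were PIM3 (0.99), DNAJB9 (0.99) and MBD6 (0.98). Spearman's rho was lower for the genes most like DDIT3, at 0.68, 0.61 and 0.73, and was 0.99, 0.98 and 0.88 for those most like SESN2.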

How the data were processed

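Total RNA was labelled with Cy3 and hybridized by the authors to single-color 44K arrays. The deposited intensities are the processed signals of Agilent Feature Extraction (version 10.7.3.1 per the file headers, 10.5.1 in the methods text), on a linear scale, background-subtracted and spatially detrended by the authors' software, with no normalization between arrays. The deposited value table equals them in 45015 of 45015 spots (relative tolerance 1e-04), and every column with values of a sample was used. Signal over background, not a count, sets the depth, and 2 arrays per group limit the precision.

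The analysis ran in R 4.3.3 with limma 3.58.1 and data.table (version 1.17.8). Control and outlier spots were left out, spots of a probe were averaged, and log2 signals were set relative to each array's 75th percentile. Probes well above background (at least 50% of spots) on both arrays of at least 1 group were kept, 28776 of 41000, for 19718 genes. RefSeq symbols were taken by accession, otherwise the scanner file's name, and the brightest probe stood for a gene. A limma model of 5 groups over 10 arrays had 5 residual and 3.36 prior degrees of freedom, with Benjamini-Hochberg adjustment over all probes kept. A call required a 2-fold change as well as an adjusted p under 0.05, except that the interaction needed the adjusted p only. The fit was tested on simulated data.

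Alternatives were normexp background correction (offset 50), quantile normalization, no filter, a stricter filter (well above background on all 10 arrays), the value table, replicate block, slide block, only the groups compared, file-name treatments, no minimum fold, the median over probes, the 1-sample test that the methods name (for which they used Subio software) and leaving out each array. The 10 genes and the lists were chosen with earlier results of these data known. Named list genes are the 3 of each list with the largest called change against DMSO in any drug group. Promoter sequences are from RefSeq, and figures were drawn with matplotlib.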

Additional observations from a re-analysis of the deposited data

Results flagged for a closer look

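The 8 genes whose change under the combined label was tested as different from the sum of the changes under the single-drug labels are flagged. If the labels are right, the effect of 1 drug on them differed with the other drug present. The values on the log2 scale, by label and against DMSO, were −2.92 for TRIB3, −2.65 for DDIT3, −2.42 for ATF3, −2.18 for PPP1R15A, −1.90 for CHAC1, −1.63 for ASNS, −1.62 for DDIT4 and −1.56 for CEBPB. The disagreement between labels and file names touches all 8: by file name PPP1R15A would be at −0.04 and ATF3 at −1.35, and neither would pass.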

How the results depend on the processing

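The numbers of called genes among the 10 moved by over 1.5 times in these settings. Under the file-name treatments they were 5 for luteolin, 10 for gefitinib and 3 for both drugs against DMSO, 9 for gefitinib and 3 for both against 0 h, 4 for luteolin against gefitinib, 2 for both against luteolin and 9 for both against gefitinib. For both drugs against gefitinib the count was 1 without the filter, 1 in the fit of only the groups compared and 4 with no minimum fold. The 1-sample test that the methods name called 0 genes against 0 h under the luteolin and gefitinib labels, with or without adjustment, and under the combined label 2 without and 0 with adjustment. Leaving out 1 array gave 3 to 6 for both drugs against DMSO, 3 to 6 for both against 0 h, 1 to 2 for both against gefitinib and 4 to 9 for the interaction. The group left with a lone array then takes its spread from the other groups.

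Among values called as reported or in the alternative, 25 turned sign, all under the file-name treatments. They were, for DDIT3, −0.23 (luteolin) and 2.86 (gefitinib) against DMSO and −0.17 and 2.92 against 0 h. For SESN2 they were 2.20 (gefitinib against DMSO), 2.41 (gefitinib against 0 h) and −0.33 (both against 0 h). For luteolin against gefitinib they were ATF4 −0.44, DDIT3 −3.09, ATF3 0.72, TRIB3 −2.77, CHAC1 −1.40, ASNS −1.21, SESN2 −0.81, PPP1R15A 0.15 and CEBPB −0.65. For both against luteolin it was CHAC1 0.11. For both against gefitinib they were ATF4 −1.31, DDIT3 −3.30, ATF3 1.26, TRIB3 −2.95, ASNS −1.78, SESN2 −2.74, PPP1R15A 1.22 and CEBPB −1.08.

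With the replicate number as a block, 9, 3 and 5 genes were called against DMSO under the luteolin, gefitinib and combined labels, 9, 3 and 5 against 0 h, and 8 for the interaction. PPP1R15A (luteolin label against DMSO, adjusted p = 0.0563) and SESN2 (combined label against 0 h, adjusted p = 0.0536) were not called. Deviations of same-numbered arrays correlated between groups at −0.093 to 0.289 across genes, so the number was not taken as a pairing. In the settings other than the file names, 43 values of 23 results that were called in neither fit also turned sign, none larger than 0.53. With quantile normalization they included ATF4 (−0.13), TRIB3 (−0.37) and ASNS (−0.059) under the gefitinib label against DMSO. The interaction of SESN2 was 0.53 without gefitinib-labelled array 1 and 0.21 without luteolin-labelled array 2, and DDIT4 was at 0.29 for the combined against the luteolin label without luteolin-labelled array 2. The 2 arrays per group limit every call.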
